A study of Mus musculus with 12 samples.

Results

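The respiratory chain of the mitochondrion is built from subunits encoded in 2 genomes, and its messenger RNAs were followed here in mouse T cells. Genes were chosen by their names alone, as subunits and assembly factors of complex I (Nduf), subunits of complex II (Sdha to Sdhd), complex III (Uqcr), complex IV (Cox4 to Cox8) and complex V (Atp5), and the protein-coding genes of mitochondrial DNA (mt-), leaving out names that contain -ps. Of the 12809 genes in the deposited table, 99 met this rule: 86 in the nuclear genome and 13 in mitochondrial DNA. The nuclear genes were 7 core subunits, 31 other subunits and 8 assembly factors of complex I, 4 subunits of complex II, 8 of complex III, 11 of complex IV and 17 of complex V. All 86 nuclear and all 13 mt- genes reached at least 1 CPM (reads scaled to a common library size) in at least 3 libraries and were tested.

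Complexes I and II pass electrons from nutrients to ubiquinone, complex III passes them on to cytochrome c, and complex IV hands them to oxygen. Complexes I, III and IV pump protons across the inner membrane, and complex V uses the returning protons to make ATP. Complexes I, III, IV and V combine subunits made from nuclear and from mitochondrial genes, whereas complex II is encoded by nuclear genes only. Quiescent T cells rely largely on this chain for their ATP, and activated T cells raise both glycolysis and respiration.

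The total RNA came from lymph node T cells of female mice, sorted as CD4 or as CD8 cells, in 4 groups of 3 libraries each. B6 mice (strain C57BL/6, labelled as 10 weeks old) have unaltered coreceptor loci, and FlipFlop mice (labelled as 14 weeks old) carry Cd8a loci altered to encode CD4 and Cd4 loci altered to encode CD8.1 alpha-beta in place of their own coreceptors. The altered Cd8a locus was made in embryonic stem cells of a 129 substrain and not of B6. Nothing in the sources used here says whether a library came from 1 mouse or from pooled mice, so that p-values measure the spread between libraries. In FlipFlop mice each coreceptor is made from the locus of the other, so that FlipFlop CD4 T cells are grouped here with the cytotoxic lineage and FlipFlop CD8 T cells with the helper lineage. The transcription factor gene Zbtb7b, which encodes the helper-lineage factor ThPOK, had 192 to 203 CPM among B6 CD4, 1.16 to 1.99 CPM among B6 CD8, 1.87 to 2.79 CPM among FlipFlop CD4 and 162 to 172 CPM among FlipFlop CD8 T cells.

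Each library held about 26600000 to 33100000 reads on the listed genes, so that 3 reads, the limit that a count of 0 allows, correspond to 0.0857 to 0.120 CPM. Intervals and floors of this kind cover counting error only. The CPM were scaled by the authors with TMM factors, which correct the library size for composition, and differences are given as log2(CPM + 0.5) with their standard error (SE). A gene was called at a limma p-value under 0.05 after Benjamini-Hochberg adjustment over 11595 genes, with no limit on the fold change. Levels in CPM per kilobase of exon (CPM per kb) were used only to compare genes with each other. Markers of 10 dividing-cell genes summed to 154 to 240 CPM among FlipFlop CD8 libraries and to 38.3 to 78.5 CPM in the other 9 libraries. Markers of 7 memory or effector genes summed to 782 to 1138 CPM among FlipFlop CD8, 757 to 838 CPM among B6 CD8 and 362 to 481 CPM in both other groups. Markers of 5 naive genes summed to 3469 to 3644 CPM among FlipFlop CD8 and to 4180.3 to 4783 CPM elsewhere. The 2 of 4 NK cell markers in the table summed to 11.5 to 12.9 CPM among FlipFlop CD8 and to 2.23 to 5.52 CPM elsewhere. The 4 of 6 red cell markers in the table, all haemoglobin genes, summed to 15.9 to 28.8 CPM in B6 and to 6.67 to 14.2 CPM in FlipFlop libraries, so that the strains did not overlap. The 6 B cell markers summed to 49.1 to 68.2 CPM in B6 and to 35.9 to 56.1 CPM in FlipFlop libraries. The 5 of 7 myeloid markers in the table summed to 20.1 to 30.0 CPM among B6 CD4, 8.60 to 20.8 CPM among B6 CD8, 6.92 to 9.01 CPM among FlipFlop CD4 and 15.7 to 28.1 CPM among FlipFlop CD8 libraries. The 5 T cell markers (Cd3e, Cd3d, Cd3g, Trac and Cd2) summed to 3148 ± 476 CPM (SD, n = 3) among B6 CD4, 2822 ± 56.1 CPM among B6 CD8, 2736 ± 186 CPM among FlipFlop CD4 and 2464 ± 209.8 CPM among FlipFlop CD8 T cells, with B6 CD4 replicate 1 the highest library and FlipFlop CD8 replicate 3 the lowest, as for the nuclear chain genes below. The part of these markers in the results was not tested.

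Most nuclear genes were lower in FlipFlop than in B6 T cells, and no mt- gene was called in either direction. The 86 nuclear genes together held 12177, 9702 and 9689.6 CPM among B6 CD4 replicates 1, 2 and 3, and 10414, 10643 and 10929 CPM among B6 CD8 replicates. Their sum was 10463, 9639 and 8916 CPM among FlipFlop CD4 and 9082, 8298 and 7762 CPM among FlipFlop CD8 replicates. With the TMM factors all 3 FlipFlop CD8 libraries lay below every B6 library, whereas FlipFlop CD4 libraries overlapped the range of the B6 libraries, and B6 CD4 replicate 1 stood above the other 11 libraries. As a share of the reads, without the factors, the nuclear genes held 0.945% ± 0.0414 (SD, n = 3) in FlipFlop CD4 and 0.925% ± 0.0393 in FlipFlop CD8 T cells, and FlipFlop CD8 replicate 1, at 0.965%, lay above the lowest B6 library, at 0.955%. The 13 mt- genes summed to 27888, 34186 and 41048 CPM among B6 CD4, 32106, 40908 and 39624 CPM among B6 CD8, 38069.8, 33989 and 36754 CPM among FlipFlop CD4, and 36895, 37083 and 34205 CPM among FlipFlop CD8 replicates. The 4 groups overlapped in this sum, and the lowest value belonged to the same library, B6 CD4 replicate 1, that had the highest nuclear sum.

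**Figure D1:**
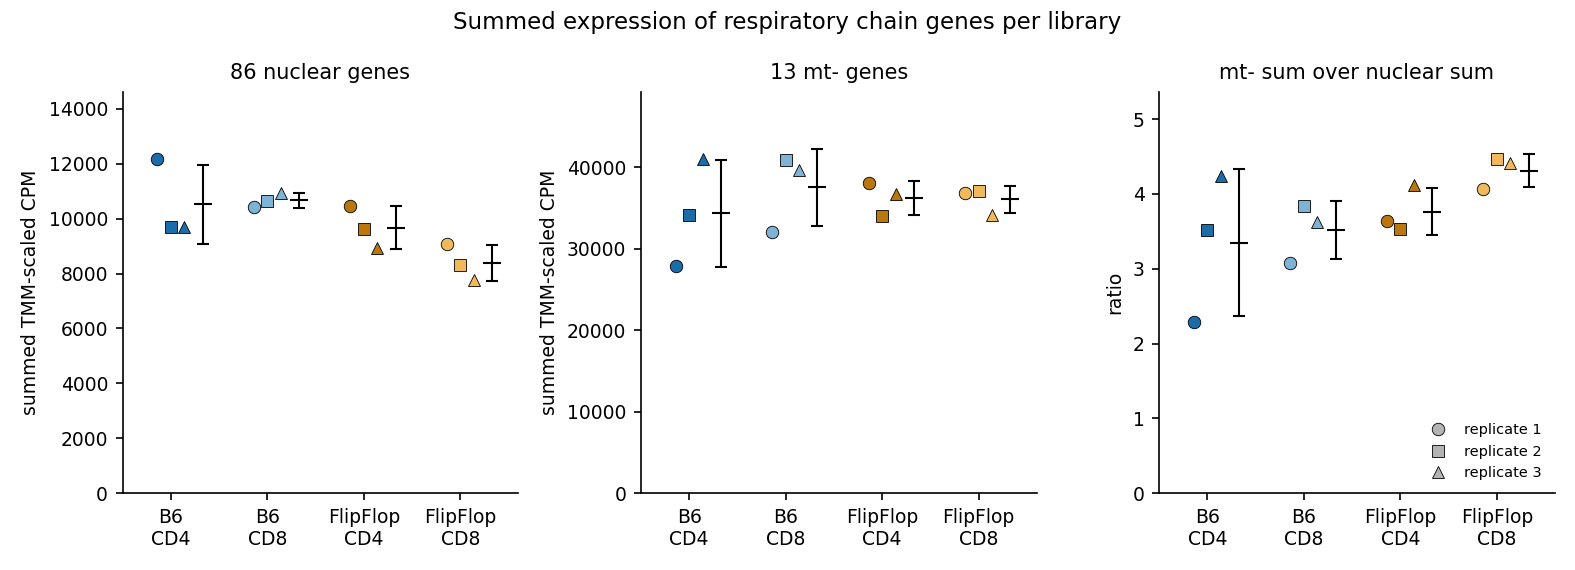
Summed TMM-scaled CPM of the 86 nuclear genes (left) and the 13 mt- genes (middle), and their ratio (right), in each of the 12 libraries, with symbols for the replicate number and the mean ± SD of 3 libraries beside each group. The nuclear sum averaged 8381 CPM among FlipFlop CD8 and 10523 CPM among B6 CD4 T cells, while the mt- sums of the groups overlapped.

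The mt- to nuclear ratio of CPM was 3.35 ± 0.985 (SD, n = 3) in B6 CD4, 3.52 ± 0.392 in B6 CD8, 3.76 ± 0.317 in FlipFlop CD4 and 4.31 ± 0.219 in FlipFlop CD8 T cells. On the log2 scale it was 0.25 higher in FlipFlop than in B6 libraries, which is about as large as the pooled SD of 0.25 between libraries of a group. Leaving out 1 library at a time moved this difference between 0.13 and 0.35, and without B6 CD4 replicate 1 the ratio no longer stood lowest in B6 CD4. The ratio is a description, since no test was made of a score over these genes.

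Gene by gene, 52 of the 86 nuclear genes were called lower in FlipFlop than in B6 T cells and 0 higher (limma). This is 60.5% of the nuclear genes, where 15.4% of all tested genes were called lower and 15.8% higher. The fit took all libraries as independent. Yet deviations of same-numbered FlipFlop CD4 and CD8 libraries from their group means correlated at 0.44, 0.27 and 0.51. Those of B6 libraries correlated at 0.18, 0.089 and 0.35. If such libraries share an animal, the strain p-values may be too small and the count of 52 too high. The median log2 difference was -0.25, a fall of 15.7%, against -0.01 for all tested genes, and 85 of the 86 genes lay below 0. None of the 13 mt- genes was called and 0 had an unadjusted p under 0.05, with a median of 0.03. The sign of this median was not stable: it was 0.14 without the TMM factor, with 11 of 13 genes above 0, and ran from -0.11 (without B6 CD8 replicate 1, 9 of 13 below 0) to 0.11 (without B6 CD4 replicate 3) when 1 library was left out. The nuclear median ran from -0.27 to -0.17 in the same way and was nearest to 0 without B6 CD4 replicate 1. SEs were larger for the mt- genes, with a median of 0.18 against 0.08 for the nuclear genes, so that a difference of the size seen in the nuclear genes was not detectable in most mt- genes. Strain and age cannot be told apart here, since every FlipFlop library is labelled 14 weeks and every B6 library 10 weeks. The age label of the FlipFlop mice is itself in doubt, since it lies above the range of ages that the study's methods give for its mice. In sorted bulk cells, a change in the mix of cells and a change of RNA within each cell cannot be told apart either.

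**Figure D2:**
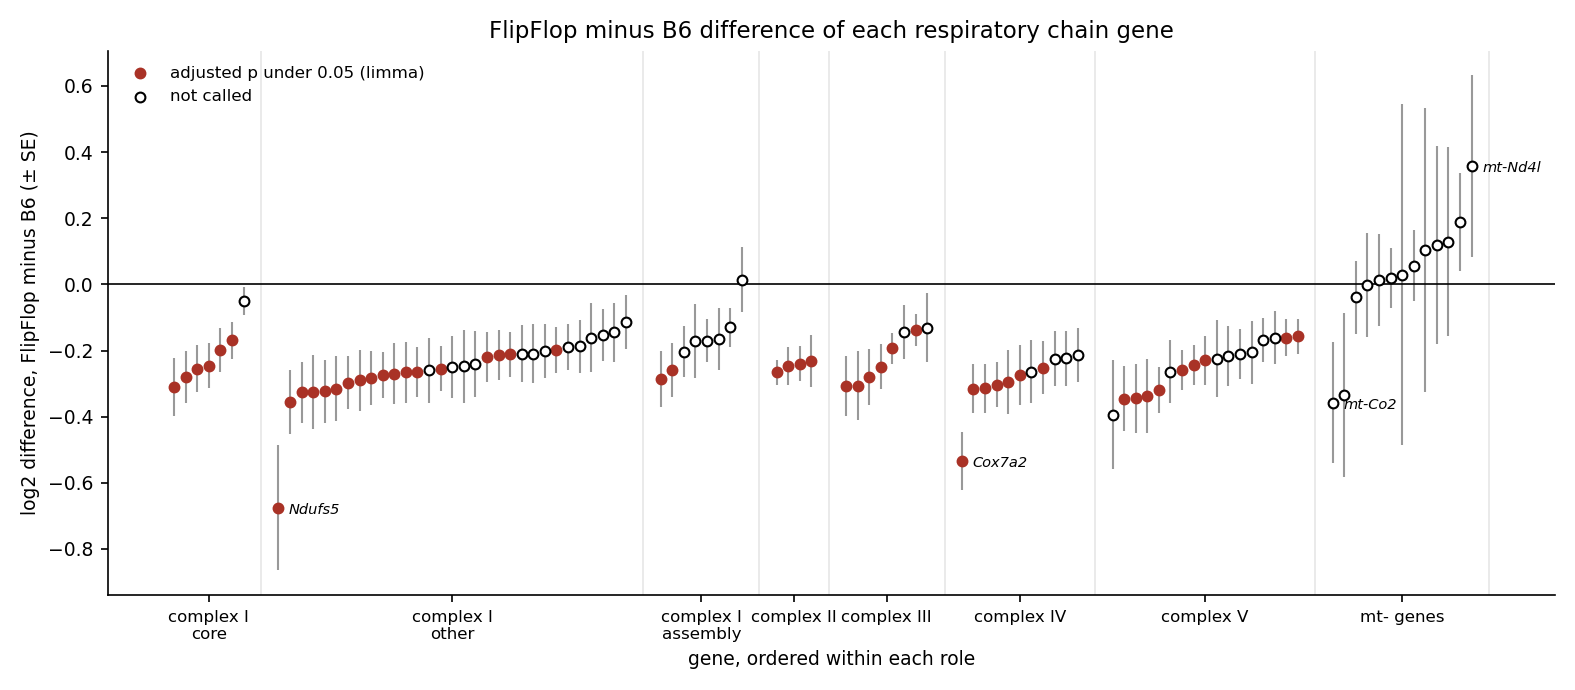
Difference between FlipFlop and B6 libraries (log2 of TMM-scaled CPM + 0.5, ± SE) of the 99 genes, ordered within each complex, with filled points for genes called by limma. The points of 85 of 86 nuclear genes lie below 0, and those of 9 of 13 mt- genes above 0, with longer error bars.

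The strain difference was also taken within each lineage, in 2 comparisons added after the values were seen, and under another scaling. Within the cytotoxic lineage (FlipFlop CD4 minus B6 CD8) 1 nuclear gene, Sdha, was called lower, beside 3.75% of all tested genes, and 14 had an unadjusted p under 0.05. The median there was -0.15, a fall of 10.1%, and 85 of 86 genes again lay below 0. Within the helper lineage (FlipFlop CD8 minus B6 CD4) 44 nuclear genes were called lower, beside 14.4% of all tested genes, with a median of -0.31, a fall of 19.6%. The difference between these 2 comparisons is a multiple of the coreceptor effect, for which 0 of 86 nuclear genes were called and 1 had an unadjusted p under 0.05, so that a difference between the lineages was not shown for any gene. The helper comparison contains the FlipFlop CD8 libraries whose dividing-cell and memory markers were high, and the part of these cells in the result was not tested. Without the TMM factor the median of all genes shifted by 0.11 and the nuclear median was -0.13, a fall of 8.92%, with 84 of 86 genes below 0. Under this scaling 14 of the 52 calls remained and no other nuclear gene was called, beside 6.51% of all tested genes called lower and 27.9% higher. Relative to all genes the nuclear median was -0.24 with and -0.24 without the factor. The factor is 1 number per library, so that this equality was fixed in advance and is no check of the scaling. Leaving out B6 CD8 replicate 1, 2 or 3 gave 34, 24 and 22 calls, leaving out FlipFlop CD4 replicate 2 or 3 gave 28 and 20, and leaving out FlipFlop CD8 replicate 2 or 3 gave 20 and 17.

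The 5 nuclear genes in which all 6 FlipFlop libraries lay below all 6 B6 libraries came from 4 complexes, and 0 of the 13 mt- genes separated in this way. They are named for this separation, chosen after their values were seen. The share of all tested genes that separate in this way was not counted, so that no excess or lack is read from these numbers. Sdha, the flavoprotein subunit of complex II that oxidises succinate, had 339, 322 and 319.5 CPM among B6 CD4, 321, 329.6 and 318 CPM among B6 CD8, 278, 286 and 281 CPM among FlipFlop CD4 and 259, 261 and 258 CPM among FlipFlop CD8 T cells. Both strains were tight, with the smallest SE of the 5 genes, and the difference was -0.27 ± 0.04 (SE, limma adjusted p = 0.000495), a fall of 16.8%. Within the cytotoxic lineage Sdha fell by 0.20 on the log2 scale (limma adjusted p = 0.0426). Cox7a2, a small nuclear subunit of complex IV, had 101, 73.8 and 74.8 CPM among B6 CD4, 76.4, 79.1 and 84.0 CPM among B6 CD8, 60.9, 54.7 and 62.5 CPM among FlipFlop CD4 and 56.2, 45.1 and 57.3 CPM among FlipFlop CD8 T cells. The highest FlipFlop library stood at 62.5 CPM and the lowest B6 library at 73.8 CPM, and the difference of -0.53 ± 0.09 (adjusted p = 0.00122) was a fall of 30.9%. Uqcrc1, a core protein of complex III, spanned 156 to 173 CPM in FlipFlop and 183 to 210.1 CPM in B6 libraries. Ndufv2, an iron-sulfur subunit of complex I, spanned 63.7 to 75.7 CPM against 77.3 to 99.0 CPM, and Cox7c of complex IV 60.8 to 80.5 CPM against 80.7 to 106 CPM. Only in Sdha was the gap between the strains, 31.8 CPM, larger than the range within each strain. Without the TMM factor Cox7a2 and Cox7c still separated, together with Cox6a1 and Atp5g1, and Sdha, Uqcrc1 and Ndufv2 did not.

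In complex I, 6 of 7 core subunits, 18 of 31 other subunits and 2 of 8 assembly factors were called lower in FlipFlop T cells. The core subunits carry the flavin and the iron-sulfur clusters that move electrons. Ndufs7 among them had 53.6 ± 10.1 CPM (SD, n = 3) in B6 CD4, 53.5 ± 2.41 CPM among B6 CD8, 47.3 ± 1.84 CPM among FlipFlop CD4 and 39.2 ± 5.75 CPM among FlipFlop CD8 T cells, a difference of -0.31 ± 0.09. Ndufv1, which binds NADH, differed by -0.25 ± 0.07 (adjusted p = 0.0206). Ndufs1, the largest core subunit, was the core gene that was not called, at -0.05 ± 0.04 (adjusted p = 0.369), and it is described below with the lineage comparison. Ndufa7, an accessory subunit, had a mean of 79.6 ± 16.8 CPM among B6 CD4, 78.6 ± 1.15 CPM among B6 CD8, 63.3 ± 7.85 CPM among FlipFlop CD4 and 59.8 ± 7.11 CPM among FlipFlop CD8 T cells, a fall of 21.9% (adjusted p = 0.0171). The assembly factors had the smallest median shift of the nuclear roles, -0.17. Ndufaf8 and Ndufaf6 were called in this role, and Ndufaf2, at 0.01 ± 0.10, was the nuclear gene that lay above 0.

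Ndufs5, an accessory subunit of complex I on chromosome 4, had the largest difference of the nuclear genes in the fit, and also the largest SE. It had 34.3, 27.3 and 25.9 CPM among B6 CD4 and 27.6, 29.2 and 28.5 CPM among B6 CD8 replicates. FlipFlop CD4 replicates had 12.3, 18.8 and 27.3 CPM and FlipFlop CD8 replicates 11.6, 18.0 and 23.9 CPM. In both FlipFlop groups replicate 1 was lowest and replicate 3 lay near the B6 range, so that libraries with the same number went together. The fitted difference was -0.67 ± 0.19 (adjusted p = 0.0204), a fall of 37.4%.

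A processed copy of Ndufs5, listed as BC002163 on chromosome 16, had the opposite pattern. It had at most 0.168 CPM in the 6 B6 libraries, 5 of which were under the floor of 3 reads. In FlipFlop CD4 it had 10.0 CPM in replicate 1, 5.16 CPM in replicate 2 and 0 CPM in replicate 3, and in FlipFlop CD8 9.80, 3.50 and 0 CPM. A value of 0 allows up to 0.112 and 0.0857 CPM in the 2 FlipFlop replicates numbered 3. The libraries with the least Ndufs5 therefore had the most of the copy, and the copy took 44.8% and 45.8% of the summed value in the FlipFlop replicates numbered 1. The sum of both genes was 22.4, 23.9 and 27.3 CPM among FlipFlop CD4 and 21.4, 21.5 and 23.9 CPM among FlipFlop CD8, and among these FlipFlop libraries only CD4 replicate 3 reached the range of the B6 libraries, whose highest sum was 34.3 CPM. Fitted on this sum, the strain difference was -0.30 ± 0.08 (adjusted p = 0.0127), a fall of 18.7%, with the smaller SE. The part of read placement in the Ndufs5 difference was not tested beyond this sum.

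The transcripts of the 2 genes aligned over 319 bases at 99.4% identity, with the substitutions T328C and A352G, counted from the 5′ end of the Ndufs5 transcript, where the Ndufs5 base stands first. A coding stretch around both positions is shown, because it holds both bases by which reads within the aligned part differ between the genes. It was taken from the GENCODE M21 transcripts of GRCm38, bases 303 to 377 of the Ndufs5 transcript in a single exon of the minus strand, chr4:123715950-123716024, and bases 56 to 130 of BC002163 on chr16, plus strand. Capitals mark the bases that differ.
Ndufs5: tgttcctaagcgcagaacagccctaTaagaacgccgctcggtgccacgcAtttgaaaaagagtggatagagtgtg
BC002163: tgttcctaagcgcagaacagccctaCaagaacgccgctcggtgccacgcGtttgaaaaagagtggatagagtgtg
In the rest of the aligned part the reference sequences of both genes are the same.

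**Figure D3:**
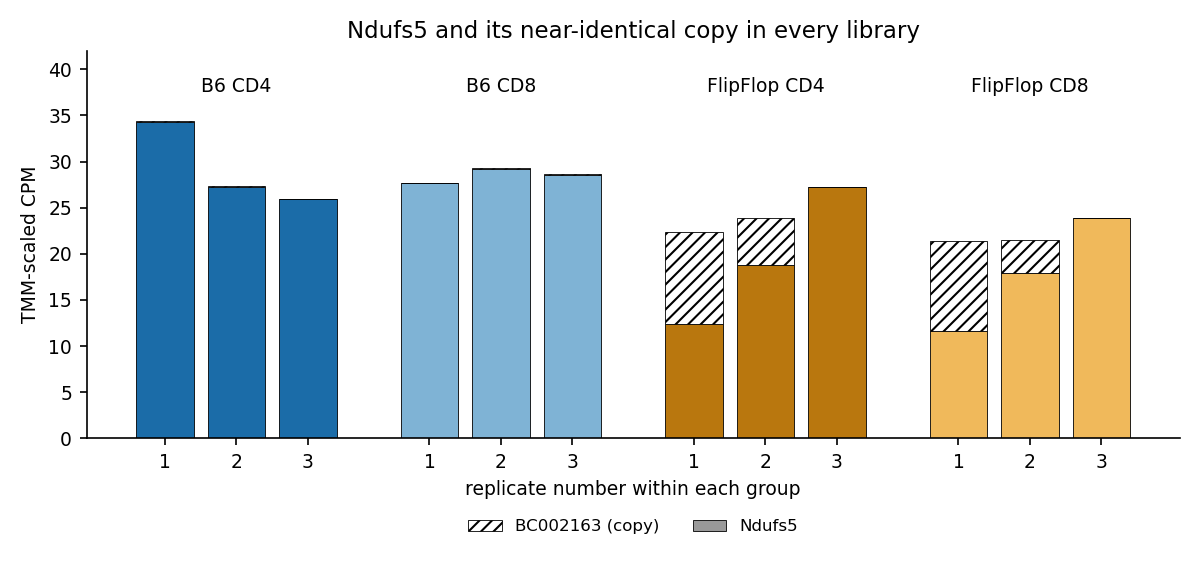
TMM-scaled CPM of Ndufs5 (filled) with its copy BC002163 stacked on top (hatched) in the 12 libraries, grouped by strain and coreceptor. The copy is visible in FlipFlop replicates 1 and 2 of both groups, where Ndufs5 is lowest, and it is at 0 in FlipFlop replicates 3.

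All 4 subunits of complex II were called lower in FlipFlop T cells. Sdhb, its iron-sulfur subunit, differed by -0.23 ± 0.08, and the membrane anchors Sdhc and Sdhd by -0.25 ± 0.06 and -0.24 ± 0.05. The 4 differences, Sdha included, ran from -0.27 to -0.23, and their SEs did not separate them. Summed complex II expression was 604 ± 42.1 CPM (SD, n = 3) in B6 CD4, 599 ± 14.5 CPM among B6 CD8, 525 ± 13.7 CPM among FlipFlop CD4 and 482 ± 8.74 CPM among FlipFlop CD8 T cells.

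In complex III, 6 of 8 subunits were called lower. Uqcrq had the largest difference, -0.31 ± 0.09 (adjusted p = 0.024), and Uqcrc1 the smallest SE, with -0.19 ± 0.05 (adjusted p = 0.00917). Uqcrfs1, the Rieske iron-sulfur protein that passes electrons towards cytochrome c, had 139, 107 and 116 CPM among B6 CD4, 123, 134 and 135 CPM among B6 CD8, 128, 117 and 109.9 CPM among FlipFlop CD4 and 97.2, 96.2 and 87.8 CPM among FlipFlop CD8 T cells. Here the FlipFlop CD8 libraries lay below all others, and FlipFlop CD4 libraries overlapped B6.

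In complex IV, 7 of 11 nuclear subunits were called lower, and all 11 had an unadjusted p under 0.05. Cox6a1 differed by -0.32 ± 0.07, Cox7c by -0.31 ± 0.07, Cox8a by -0.30 ± 0.07, Cox7b by -0.30 ± 0.10 and Cox4i1, a regulatory subunit, by -0.27 ± 0.09. Cox5a at -0.26 ± 0.09 (adjusted p = 0.0521) and Cox6b1 at -0.22 ± 0.08 (adjusted p = 0.0556) did not pass. Complex IV has tissue-specific subunit pairs, and of these the table listed the forms used in most tissues, Cox4i1, Cox6a1, Cox6b1, Cox7a2, Cox7b and Cox8a, together with Cox7a2l. Cox4i2, Cox6a2, Cox6b2, Cox7a1, Cox7b2, Cox8b, Cox8c and Ndufa4l2, the forms of other tissues, were not among the listed genes. Ndufa4, once counted to complex I and now known as a complex IV subunit, fell by 18.2% (adjusted p = 0.0351). Per kilobase of exon, Cox7a2l was the highest of all nuclear genes, at 476 CPM per kb, followed by Cox8a at 288 CPM per kb, whereas the lowest was Atp5s, a complex V coupling factor, at 0.627 CPM per kb.

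In complex V, 9 of 17 genes were called lower. Atp5a1 and Atp5b, the alpha and beta subunits of its catalytic head, differed by -0.16 ± 0.06 and -0.16 ± 0.05, near the lower end of the range. Atp5h, a stalk subunit, and Atp5mpl, a small membrane subunit, differed by -0.35 ± 0.10 and -0.34 ± 0.10. In both genes B6 CD4 replicate 1 was the highest library, at 293 CPM and 105 CPM, against 199 and 205 CPM and 72.1 and 74.3 CPM in the other B6 CD4 replicates. The 3 genes for subunit c, which forms the rotating ring and has the same mature sequence whichever gene encodes it, all had differences below 0. Atp5g1 fell by 19.9% (adjusted p = 0.00574) and Atp5g2 by 16.4% (adjusted p = 0.00833), and Atp5g3 differed by -0.17 ± 0.07 (adjusted p = 0.0685). The differences among the 3 genes were not tested.

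CD4 and CD8 T cells were compared within each strain to ask whether respiratory chain genes follow the coreceptor or the lineage. In B6 mice 2 nuclear genes, Ndufa10 and Cox8a, were called lower in CD4 than in CD8 T cells and 0 higher, beside 10.8% of all tested genes called lower and 14.6% higher. The median of the nuclear genes was 0.01. In FlipFlop mice 10 nuclear genes were called higher in CD4 than in CD8 T cells and 0 lower, beside 15.3% and 16.0% of all tested genes, with a median of 0.16 against 0.04 for all genes, and 81 of 86 lay above 0. This direction turned with the scaling, which moves all genes nearly alike. Without the TMM factor the nuclear median was -0.02, beside -0.14 for all genes, with 36 of 86 nuclear genes above 0. Then 3 nuclear genes were called higher and 1 lower, beside 6.76% and 25.7% of all tested genes. The lowest group mean belonged to FlipFlop CD8 in 81 of 86 nuclear genes with the TMM factor and in 32 without it, when FlipFlop CD4 was lowest in 49, whereas with the factor the highest belonged to B6 CD4 in 51, B6 CD8 in 34 and FlipFlop CD4 in 1. Leaving out 1 library changed the FlipFlop count to 25 without B6 CD4 replicate 1, 3 and 6 without FlipFlop CD4 replicate 1 or 2, and 4 and 3 without FlipFlop CD8 replicate 2 or 3, and the B6 count to 8 without B6 CD4 replicate 1 and to 0 without any other single B6 library. With all libraries the share of genes called was below the background in both strains. In FlipFlop mice this did not hold for higher calls without B6 CD4 replicate 1, when 2313 of 11557 tested genes were called higher and 2098 lower. The median in FlipFlop mice lay 0.12 above that of all genes, a distance that the scaling by library leaves nearly unchanged by its nature. It was 0.059 and 0.067 without FlipFlop CD4 replicate 1 or FlipFlop CD8 replicate 3.

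The lineage effect, which averages the helper groups (B6 CD4 and FlipFlop CD8) and subtracts the cytotoxic groups (B6 CD8 and FlipFlop CD4), called 10 nuclear genes lower in helper T cells and 0 higher. This is 11.6% of the nuclear genes, beside 19.4% of all tested genes called lower and 19.9% higher, with a median of -0.08 against -0.03. The direction of these calls depended on the scaling, which moves all genes nearly alike. Without the TMM factor the nuclear median was 0.04, beside 0.09 for all tested genes. Then 8 nuclear genes were called higher and 3 lower, beside 31.0% and 10.0% of all tested genes. Ndufa10, Cox8a and Cox7a2l were the 3 called lower under both scalings. Among the 10 genes called, these 3 had the largest lineage effects, and Atp5s, at 0.39 ± 0.17 (adjusted p = 0.0854), was not called. Without B6 CD4 replicate 1, 32 nuclear genes were called, beside 2687 of 11557 tested genes called lower and 2532 higher. That the nuclear share lay below the share of all genes called lower therefore depended on this library.

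Ndufa10, an accessory subunit of complex I, had 93.6, 80.1 and 70.6 CPM among B6 CD4, 105, 98.5 and 101 CPM among B6 CD8, 99.0, 96.3 and 87.7 CPM among FlipFlop CD4 and 73.4, 65.5 and 62.2 CPM among FlipFlop CD8 T cells. In each strain the helper libraries lay below the cytotoxic libraries without overlap. CD4 libraries differed from CD8 libraries by -0.32 ± 0.10 in B6 mice (adjusted p = 0.0299) and by 0.49 ± 0.10 in FlipFlop mice (adjusted p = 0.00226). The lineage effect was -0.41 ± 0.07 (adjusted p = 0.000509), a fall of 24.6%.

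Cox8a, a small complex IV subunit, had 198, 163 and 164 CPM among B6 CD4, 216, 213 and 224 CPM among B6 CD8, 192, 186 and 169.8 CPM among FlipFlop CD4 and 152, 137 and 122 CPM among FlipFlop CD8 T cells. The groups did not overlap within either strain, and the lineage effect was -0.37 ± 0.07 (adjusted p = 0.000881). Cox7a2l, counted here with complex IV, had 830.2, 643 and 685 CPM among B6 CD4 and 744, 773 and 813 CPM among B6 CD8, groups that overlapped. In FlipFlop mice it had 889, 785 and 682 CPM in CD4 against 575, 535 and 481 CPM in CD8 T cells, which did not overlap, a difference of 0.56 ± 0.12 (adjusted p = 0.00281).

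The other 7 genes with a lineage effect had smaller ones, from -0.25 to -0.16. Ndufa9 of complex I was at -0.25 ± 0.07 and Ndufs1 at -0.17 ± 0.04. For Ndufs1 the values were 66.7, 67.6 and 62.5 CPM among B6 CD4, 70.6, 74.3 and 73.5 CPM among B6 CD8, 73.3, 68.3 and 73.1 CPM among FlipFlop CD4 and 63.5, 60.7 and 62.4 CPM among FlipFlop CD8 T cells. All helper libraries lay below all cytotoxic libraries, with 67.6 and 68.3 CPM as the nearest pair. Uqcrfs1 and Uqcrc2 of complex III were at -0.23 ± 0.07 and -0.18 ± 0.05, Atp5b and Atp5g2 of complex V at -0.21 ± 0.05 and -0.21 ± 0.06, and Sdhd of complex II at -0.16 ± 0.05. In Sdhd and Ndufs1 the 2 strains contributed about equally, with B6 differences of -0.18 ± 0.07 and -0.15 ± 0.06 that were not called on their own.

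**Figure D4:**
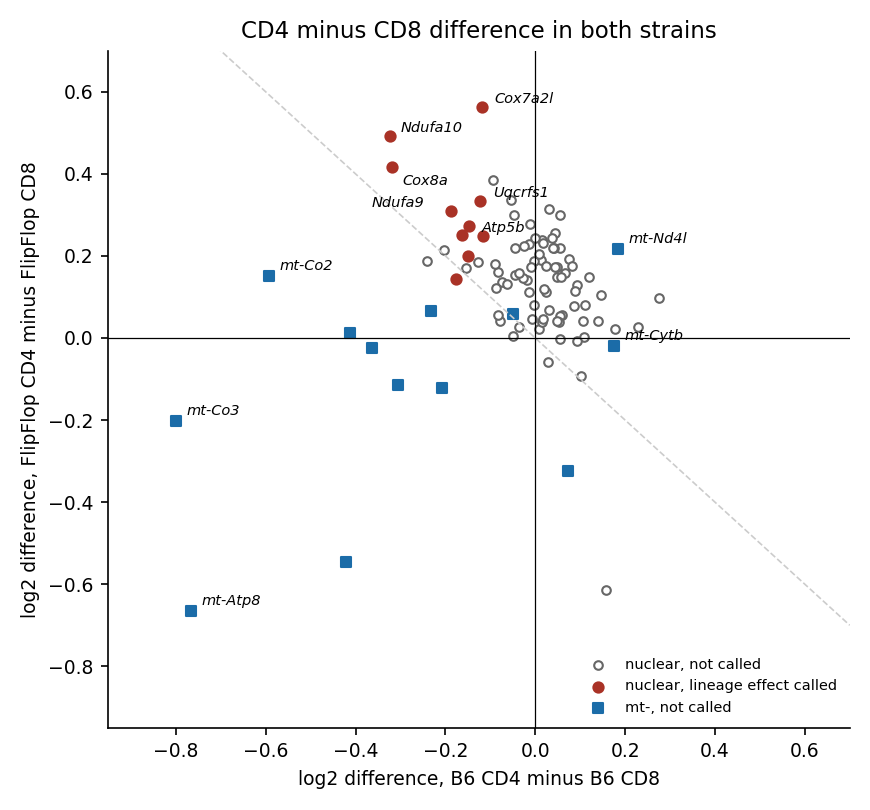
CD4 minus CD8 difference of the 99 genes in B6 (horizontal) and FlipFlop mice (vertical), in log2 of TMM-scaled CPM + 0.5, with the dashed line marking equal and opposite differences. The 10 nuclear genes with a called lineage effect lie in the upper left, below 0 in B6 and above 0 in FlipFlop mice, and 81 of 86 nuclear genes lie above 0 in FlipFlop mice, a number that was 36 without the TMM factor.

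The coreceptor effect, the mean of both CD4 groups minus that of both CD8 groups, called 0 of 86 nuclear genes (limma), 1 of which had an unadjusted p under 0.05, and 0 of 13 mt- genes with 0 at that level. Of all tested genes 1.71% were called higher and 3.78% lower. The median of the nuclear genes was 0.07, with 78 of 86 above 0 (53 without the TMM factor), and that of the mt- genes was -0.19, with 10 of 13 below 0. No direction is read from these medians.

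The mt- genes were on average more abundant than the nuclear genes, with a median of 1288 CPM per kb against 49.7 CPM per kb. mt-Co1, the catalytic subunit of complex IV, was highest at 11089 CPM per kb and varied little between libraries, from 13945 CPM among B6 CD4 replicate 1 to 19022 CPM among FlipFlop CD4 replicate 1. mt-Cytb of complex III, at 4507 CPM per kb, had 5427 ± 323 CPM (SD, n = 3) in B6 CD4, 4798 ± 154 CPM among B6 CD8, 5164 ± 664 CPM among FlipFlop CD4 and 5236 ± 708 CPM among FlipFlop CD8 T cells. Without the TMM factor mt-Cytb was called higher in the helper lineage, and with it the lineage effect was 0.10 ± 0.09 (adjusted p = 0.438). mt-Nd6, the complex I subunit on the other strand of mitochondrial DNA, was lowest, at 9.37 CPM per kb, and the library kit does not mark strand, so that its reads cannot be told from antisense RNA.

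No mt- gene was called in any of the 5 comparisons. Unadjusted p-values under 0.05 were found for 2 of 13 mt- genes in the B6 comparison and for 0 in the FlipFlop, lineage, coreceptor and strain comparisons. The B6 difference had a median of -0.30 and 10 of 13 genes below 0. Leaving out B6 CD4 replicate 1, 2 or 3 made this median -0.05, -0.20 and -0.59, and leaving out B6 CD8 replicate 1, 2 or 3 made it -0.45, -0.15 and -0.16. mt-Co3, a complex IV subunit, had 629.8, 694 and 1203 CPM among B6 CD4 and 1252, 1505 and 1469.8 CPM among B6 CD8 T cells, a difference of -0.80 ± 0.35 (adjusted p = 0.123). mt-Co2, the complex IV subunit that receives electrons from cytochrome c, had 709, 569 and 884 CPM among B6 CD4 and 837, 1202 and 1216 CPM among B6 CD8 T cells, at -0.59 ± 0.26 (adjusted p = 0.122). B6 CD4 replicate 3 was the highest of its group in both genes. Without that library 3 genes, mt-Co3, mt-Nd2 and mt-Nd5, were called lower in B6 CD4 T cells. With a block for the replicate number mt-Nd2, a membrane subunit of complex I, was called in this comparison.

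Several mt- genes varied more within a group than between groups. mt-Atp6, the proton channel subunit of complex V, ranged from 366 to 1460.1 CPM within B6 CD4 and from 301 to 1269.9 CPM within B6 CD8 T cells. mt-Atp8, the neighbouring complex V subunit whose reading frame overlaps it, ranged from 194 to 1192 CPM and from 313 to 1265 CPM in the same groups. In both genes B6 CD4 replicate 3 and B6 CD8 replicates 2 and 3 were the high libraries of B6. The complex I genes mt-Nd1, mt-Nd2, mt-Nd4 and mt-Nd5 had B6 CD4 replicate 1 as their lowest library, at 2195, 1265, 2185 and 1195 CPM. mt-Nd3 and mt-Nd4l, at 19.7 to 79.3 CPM and 40.4 to 133 CPM over all libraries, had SEs of 0.30 and 0.27 for the strain effect.

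Of the 13 mt- genes 7 have a near-identical copy among the pseudogenes listed on chromosome 1, which stand side by side between chr1:24611535 and chr1:24616197 on the minus strand (GRCm38). Most reads of several of these pairs were listed under the copy. Gm28661, which is 100% identical to mt-Co2 over 681 bases, averaged 5223 CPM over the 12 libraries, where mt-Co2 averaged 801 CPM. Gm10925, identical to mt-Atp6 over 678 bases, averaged 5282 CPM against 803 CPM, and Gm28437, identical to mt-Co3 over 783 bases, 5047 CPM against 1009.6 CPM. The copy therefore held 86.7%, 86.8% and 83.3% of the summed value of each pair. Gm28438 held 90.1% of its pair with mt-Nd3 and Gm10222 79.4% of its pair with mt-Nd4l, whereas Gm29216, which covers 483 bases of mt-Co1, held 15.3% and Gm28439 0.0863% of its pair with mt-Nd4. The 7 copies together had 16086 to 21697 CPM per library.

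The first 60 bases of mt-Co2 (GRCm38, chrMT:7013-7696, plus strand) and of Gm28661 (chr1:24614885-24615565, minus strand) are shown because they carry no base by which a read could be placed, as in the whole aligned part.
mt-Co2: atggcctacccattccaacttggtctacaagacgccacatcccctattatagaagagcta
Gm28661: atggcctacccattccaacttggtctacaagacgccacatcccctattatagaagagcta
In mt-Nd3 (chrMT:9459-9806) and Gm28438 (chr1:24612775-24613119) 1 base differs over 345 aligned bases, T3C counted from the first base of mt-Nd3, shown in capitals.
mt-Nd3: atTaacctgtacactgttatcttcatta
Gm28438: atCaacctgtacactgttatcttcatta
In mt-Co1 (chrMT:5328-6872) and Gm29216 (chr1:24615706-24616197) the base that differs is A1066T, counted from the first base of mt-Co1.
mt-Co1: ggaAttgttttatccaactcatcccttga
Gm29216: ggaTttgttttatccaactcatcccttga

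**Figure D5:**
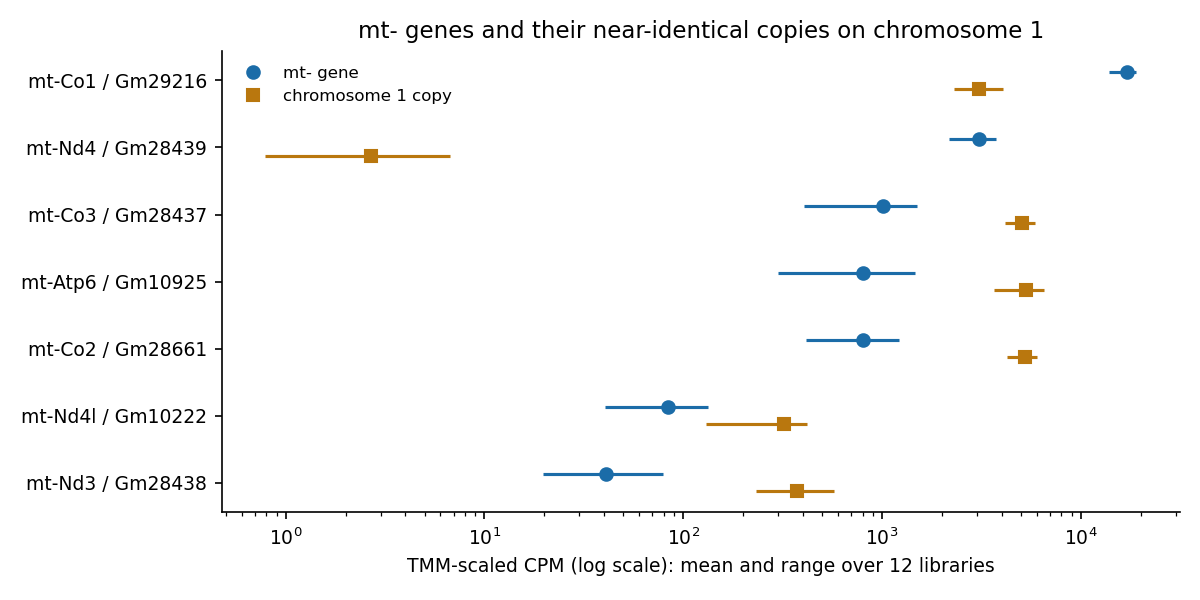
TMM-scaled CPM, on a log axis, of the 7 mt- genes with a near-identical copy on chromosome 1 and of that copy, with points for the mean of 12 libraries and lines from the lowest to the highest library. For mt-Co2, mt-Atp6, mt-Co3, mt-Nd4l and mt-Nd3 the copy lies above the mt- gene in the mean.

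Adding each copy to its mt- gene gave a smaller spread between libraries in 6 of the 7 pairs, mt-Nd4 being the exception, with the copy holding most of the sum in 5 of them. The highest library was 2.92 times the lowest for mt-Co2 alone and 1.28 times for mt-Co2 and Gm28661 together, and the same numbers were 4.85 and 1.78 for mt-Atp6 and 3.73 and 1.55 for mt-Co3. The copies alone had ratios of 1.41, 1.78 and 1.41. The sums with the copies were fitted as an alternative added after the values were seen, and again 0 of 13 mt- genes were called in each of the 5 comparisons. The mt- to nuclear ratio with the copies added was 0.21 higher in FlipFlop libraries on the log2 scale. How reads that match both places were divided is not given in the sources used here, so that the levels of these 7 genes are uncertain.

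Genes outside the named set that work with the chain were counted from lists. Of 78 genes for proteins of the mitochondrial ribosome, which translates the mt- messengers, 36 were called lower in FlipFlop T cells and 0 higher, with a median of -0.20, and 21 were lower and 1 higher in the helper lineage. Of 50 other assembly factors and electron carriers 15 were lower and 1 higher in FlipFlop T cells, and 15 were lower and 2 higher in the helper lineage. Of 30 genes for mitochondrial DNA replication, transcription and RNA handling 3 were lower and 2 higher in FlipFlop T cells, and 8 were lower and 1 higher in the helper lineage. Of 13 ubiquinone synthesis genes and 13 regulators of mitochondrial genes 1 each was higher and 1 each lower in FlipFlop T cells, and in the helper lineage 1 ubiquinone gene was lower and 1 higher, and 4 regulators were lower and 1 higher. These counts stand beside 15.4% of all tested genes called lower and 15.8% higher with strain, and 19.4% lower and 19.9% higher with lineage. The direction of the lineage counts depended on the scaling, as for the chain genes: without the TMM factor 4 ribosome genes were lower and 8 higher in the helper lineage, 8 assembly factors and carriers lower and 8 higher, 2 DNA and RNA genes lower and 2 higher, 3 regulators lower and 4 higher, and 1 ubiquinone gene lower and 2 higher, beside 10.0% of all tested genes lower and 31.0% higher. With strain, 17 ribosome genes were then lower and 0 higher, 5 assembly factors and carriers lower and 4 higher, 0 DNA and RNA genes lower and 3 higher, 1 regulator lower and 3 higher, and 0 ubiquinone genes lower and 1 higher, beside 6.51% and 27.9% of all tested genes.

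Cycs, cytochrome c itself, had 78.7, 68.1 and 75.1 CPM among B6 CD4, 74.0, 89.6 and 90.2 CPM among B6 CD8, 66.2, 54.7 and 65.1 CPM among FlipFlop CD4 and 52.8, 53.1 and 54.0 CPM among FlipFlop CD8 T cells. Every FlipFlop library lay below every B6 library, and the strain effect was -0.46 ± 0.07 (adjusted p = 0.000647). Cyc1, the cytochrome c1 subunit of complex III that the name rule does not take, differed by -0.19 ± 0.05 (adjusted p = 0.0159), a call that was lost without the TMM factor. Tfam, which packs and transcribes mitochondrial DNA, differed by -0.14 ± 0.05 (adjusted p = 0.0628), Polrmt, the mitochondrial RNA polymerase, by -0.07 ± 0.05 (adjusted p = 0.335) and Nrf1, a transcription factor for respiratory chain genes, by -0.04 ± 0.06 (adjusted p = 0.567). Ppargc1b, a coactivator of mitochondrial genes, was higher in FlipFlop T cells by 0.24 ± 0.08 (adjusted p = 0.0419).

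Helper and cytotoxic T cells also differed in genes that serve the chain. Apart from Lrpprc, the genes of this paragraph were picked as the largest called lineage effect in each direction of each list. Lrpprc, which stabilises mt- messengers, had 81.6, 85.1 and 79.1 CPM among B6 CD4, 99.3, 107 and 103 CPM among B6 CD8, 104, 97.2 and 87.2 CPM among FlipFlop CD4 and 79.8, 76.5 and 72.0 CPM among FlipFlop CD8 T cells. The helper groups lay below the cytotoxic groups, with a lineage effect of -0.33 ± 0.05 (adjusted p = 0.000242). Sirt3, a mitochondrial deacetylase, and Lyrm7, an assembly factor that loads the iron-sulfur cluster of Uqcrfs1, both had effects of -0.75, with SEs of 0.07 and 0.14. In the other direction Sdhaf1, which helps to insert the iron-sulfur clusters of Sdhb, was higher in the helper lineage by 0.52 ± 0.06, and Polg, the polymerase of mitochondrial DNA, by 0.44 ± 0.05. Fastkd2, an RNA-binding protein, was at -0.37 ± 0.07 and Coq2, of ubiquinone synthesis, at -0.29 ± 0.05. Coq8b, of the same pathway, was at 0.22 ± 0.07 and Gabpb1, a subunit of the ETS factor GABP, at 0.20 ± 0.05. Among proteins of the mitochondrial ribosome, Mrpl34 was lower in the helper lineage, at -0.36 ± 0.09, and Mrps6 higher, at 0.45 ± 0.08.

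The promoters of the nuclear genes were examined for letters of motifs known from respiratory chain genes. RefSeq promoters (250 bases before to 50 after a start, GRCm38) were matched by symbol for 72 of the 86 nuclear genes, with 77 starts. The string GCGCANGCG, part of the NRF1 motif, stood on either strand of 29.9% of these promoters and of 6.25% of all 32851 promoters. CCGGAAG, of the ETS factors such as GABP, stood in 23.4% against 8.86%, and AAGATGGCG, part of the YY1 motif, in 10.4% against 1.40%. At least 1 of the 3 strings was found in 51.9% of the member promoters and 14.8% of all promoters, and a match is a description of letters, not of a factor bound. Sdha, with the smallest p of the strain effect among these genes, has 3 matches to the NRF1 string in the 200 bases before its start, shown in capitals, chr13:74350241-74350440, minus strand.
Sdha: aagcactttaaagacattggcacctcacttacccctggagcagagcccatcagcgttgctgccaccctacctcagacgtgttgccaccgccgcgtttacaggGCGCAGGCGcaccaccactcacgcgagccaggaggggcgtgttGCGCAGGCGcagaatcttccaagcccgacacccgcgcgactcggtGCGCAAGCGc
Cox7a2, with the larger fall, has none of the 3 strings in the same stretch, chr9:79759854-79760053, minus strand.
Cox7a2: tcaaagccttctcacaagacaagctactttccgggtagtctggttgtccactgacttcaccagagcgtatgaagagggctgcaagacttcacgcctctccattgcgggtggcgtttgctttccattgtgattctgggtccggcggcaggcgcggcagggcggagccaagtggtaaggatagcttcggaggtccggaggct
Across the 86 nuclear genes the strain effect had a Spearman rho of 0.30 with exon length and of -0.10 with mean CPM, as descriptions over genes that share the same libraries.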

How the data were processed

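Total RNA of 12 T cell samples was sequenced after low-input cDNA amplification with a kit that does not mark strand. The deposited signal values are CPM, reads scaled to a common library size, that the authors scaled with TMM factors. The labels name Trimmomatic and TopHat and the study's methods STAR, the genome was GRCm38 (mm10), and the counting program and its treatment of reads with several positions are not given in the sources used here. All 12809 gene IDs matched GENCODE M21. Reads came out whole for too few values for a count test. Depth was read from the value of 1 read, where 3 reads equal 0.0857 to 0.120 CPM.

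Genes under 1 CPM in more than 9 of the 12 libraries were dropped, and log2(CPM + 0.5) was fitted over the 12 libraries with limma 3.58.1 (lmFit and eBayes with trend, R 4.3.3) and Benjamini-Hochberg adjustment. Each p is from this fit unless another is named. Fold changes on this scale understate those of low genes. The contrasts were CD4 minus CD8 in B6 and in FlipFlop mice, lineage, coreceptor and strain. Near-identical copies were found with blastn 2.17.0. The procedure was tested on simulated data for the lineage effect: of 11196 genes, 47 of 50 changed by 1.25-fold and 50 of 50 changed by 1.5-fold were called, and 8 of 10996 unchanged ones. The simulation drew all libraries around the B6 CD4 means with the same fixed spread setting for every gene. Only genes above 10 CPM were changed, and no spread was shared by same-numbered libraries. These rates check the code and do not carry over to the real data or to the strain effect. Named genes were all mt- genes, and called genes with a mean of 10 CPM or more. The latter were per role up to 3 with the largest lineage effect, up to 5 with the largest strain effect and up to 3 with the largest coreceptor effect in each direction. Fixed catalytic subunits, isoform pairs and the partner genes Tfam, Polrmt, Lrpprc, Nrf1, Ppargc1a, Ppargc1b, Cycs and Cyc1 were named whatever their values. In each outside list, the called gene with the largest lineage effect in each direction was named as well. Atp5s, Cox7c, Ndufaf2, Ndufaf6, Ndufaf8, Ndufs7, Ndufv2, Sdhc and Uqcrq were named as examples after their values were seen. Members and lists were chosen with earlier results of these data known. The paired fit used the replicate number as a block, across both strains for the strain effect and within each strain for the other comparisons. Deviations of same-numbered FlipFlop CD4 and CD8 libraries correlated at 0.44, 0.27 and 0.51, those of B6 at 0.18, 0.089 and 0.35, and the labels do not say what a number shares.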

Additional observations from a re-analysis of the deposited data

Results flagged for a closer look

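The CD4 minus CD8 difference of 10 nuclear genes differed between the strains by the interaction term of the limma fit, of which the lineage effect (log2, helper minus cytotoxic) is the scaled value. Ndufa10 had a lineage effect of -0.41 (B6 -0.32, FlipFlop 0.49), Cox8a of -0.37 (B6 -0.32, FlipFlop 0.42) and Cox7a2l of -0.34 (B6 -0.12, FlipFlop 0.56). Ndufa9 was at -0.25 (-0.19 and 0.31), Uqcrfs1 at -0.23 (-0.12 and 0.33), Atp5b at -0.21 (-0.15 and 0.27) and Atp5g2 at -0.21 (-0.16 and 0.25), with the B6 value first. Uqcrc2 was at -0.18 (-0.12 and 0.25), Ndufs1 at -0.17 (-0.15 and 0.20) and Sdhd at -0.16 (-0.18 and 0.14). Without the TMM factor Ndufa10, Cox8a and Cox7a2l kept their calls and the other 7 did not.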

How the results depend on the processing

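Of 84 results for single named genes, 0 changed direction under the alternatives run, but calls were lost for 37 without the TMM factor and for 6 to 28 when 1 library was left out, most without FlipFlop CD8 replicate 3. The number of nuclear genes called with strain (52) was 14 without the TMM factor, 14 with the totals taken over genes that are not mt-, 26 in a linear model without eBayes, 1 within the cytotoxic lineage (added after seeing the data) and 17 to 63 when 1 library was left out. For FlipFlop CD4 against CD8 (10) it was 4 and 5 under the same rescalings (3 higher and 1 lower, 3 higher and 2 lower) and 3 to 25 with 1 library left out. The lowest came without FlipFlop CD4 replicate 1 or FlipFlop CD8 replicate 3, and the highest without B6 CD4 replicate 1. For lineage (10) it ranged from 9 to 32, highest without B6 CD4 replicate 1. For B6 (2) it was 1 without eBayes, 0 with the 6 B6 libraries only and 0 to 8 with 1 library left out, highest without B6 CD4 replicate 1. The gene called without eBayes was Ndufs1, so that Ndufa10 and Cox8a both lost their call there. For coreceptor it stayed at 0. The count of mt- genes called (0) became 1 for lineage under both rescalings (mt-Cytb), 1 for B6 with the 6 libraries only (mt-Co3), 0 to 3 for B6, and 0 to 1 for lineage and for strain with 1 library left out. Requiring an unadjusted p under 0.0001 and more than 5-fold left 0 nuclear genes in each comparison. With the replicate block the nuclear counts were 14 in FlipFlop mice, 11 for lineage and 66 for strain, each including all genes called without it, and 1 mt- gene, mt-Nd2, was called in B6. For strain the block joined equal numbers of both strains, which no label links. The count of 66 therefore does not allow for libraries that go together within a strain, and no support for the strain calls is read from it. FlipFlop libraries each correlated best with their own number, as did 5 of 6 B6 libraries. The cause of these changes was not tested. Atp5s, the lowest nuclear gene per length, had 0.399 to 2.14 CPM, above 0.0857 to 0.120 CPM for 3 reads.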
